A study of Mus musculus with 6 samples.

Results

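The 10 genes described here are Atf4, Atf5, Ddit3, Trib3, Asns, Chac1, Psat1, Phgdh, Shmt2 and Mthfd2, a set built around the transcription factor ATF4 and the answer of cells to a shortage of amino acids. They were chosen by name, as every non-control probe that the array's own annotation gives to one of these symbols. This found 18 of the 56605 probes on the array, and all 10 genes were among the 20737 genes tested. Their mRNA was read with 1 Agilent 1-colour array per sample, in total RNA of common bile duct epithelium from C57BL/6 mice. The 3 DOX+ samples came from iFGF10 mice, which carry an inducible Fgf10 construct, and these had 0.02% doxycycline in their drinking water for 5 days. The 3 DOX- samples came from mice on plain water for 5 days, and the source names call these untreated iFGF10 mice. Their descriptions carry WT and a pair of numbers, so it is not known whether the controls had the construct or whether each was 1 mouse or a pool. The design text gives 3 mice in each condition, and p-values below measure the spread between these samples. The labels do not name the promoter that drives the construct. No doxycycline-treated mice without the construct were analysed here, so the drug and the construct cannot be told apart.

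ATF4 is the main effector of the integrated stress response. Kinases that sense amino acid shortage, misfolded protein in the endoplasmic reticulum, haem shortage or viral RNA phosphorylate the alpha subunit of the initiation factor eIF2, which slows protein synthesis in general but favours translation of the Atf4 mRNA. ATF4 protein then switches on genes for amino acid synthesis, uptake and tRNA charging, and with them the genes Ddit3, Trib3 and Chac1. Disturbed mitochondrial function, including impaired mitochondrial translation, also evokes this response, and doxycycline is known to inhibit mitochondrial ribosomes. Because ATF4 is controlled to a large extent by translation, an array of mRNA shows the level of its message and of its target messages, not the amount of the protein.

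ATF4 acts on many of its targets through a composite DNA element shared by C/EBP and ATF factors. The consensus searched for was TGATGNAA, on both strands (TTNCATCA on the other), in the RefSeq promoter windows of the GRCm38.p6 assembly, which run from 250 bases before to 50 bases after a transcript's start. These windows were available for all 10 genes, in 12 promoters. A match was found in 3 of the 12, those of Trib3, Asns and Chac1, and in 1304 of all 32851 promoter windows (3.97%). The stretches around these matches are shown because they belong to 3 of the genes whose mRNA is described below. Each is written 5′ to 3′ on the gene's own strand, and capitals mark the match.
Trib3: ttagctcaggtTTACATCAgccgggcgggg
Asns: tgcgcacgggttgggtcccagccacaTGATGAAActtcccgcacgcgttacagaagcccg
Chac1: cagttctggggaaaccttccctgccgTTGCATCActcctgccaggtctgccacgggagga
The Trib3 stretch lies at chr2:152344028-152344057 on the minus strand, with its match on the other strand at base 15 after the start. The Asns stretch is at chr6:7693199-7693258 on the minus strand, with its match on the gene's strand at base -23, counted from the start. The Chac1 stretch is at chr2:119351023-119351082 on the plus strand, with its match on the other strand at base -193. A match is a description of letters and shows no binding.

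Spots well above background made up 59.93% to 61.9% of the DOX+ arrays and 55.93% to 60.61% of the DOX- arrays, and no spot was saturated. The 3 probes for Fgf10 were well above background on 0 of 6 arrays, so the induced gene itself gave no check of the labels. Of 15 cholangiocyte markers, 13 passed the filter for testing, Krt7, Krt19 and Epcam among them, and all 13 were well above background on all 6 arrays. Across all 20737 genes, 8 differed between DOX+ and DOX- at an adjusted p under 0.05 by limma (0.0386%). The groups did not overlap for 4355 genes (21.0%), and 2766 had an unadjusted p under 0.05 (13.3%). Counts of such genes in the lists below are to be read beside these shares. These are bulk samples, in which fewer cells of a type and less RNA per cell cannot be told apart. Levels below are log2 processed intensity, set relative to each array's 75th percentile, so 0 is the level of a fairly bright spot. A difference is DOX+ minus DOX-.

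None of the 10 ATF4 and amino acid stress genes passed the test. By limma 0 of 10 reached an adjusted p under 0.05, 0 of them higher (0.0193% of all genes) and 0 lower (0.0193%), and only Trib3 had an unadjusted p under 0.05. Adjusted p-values ran between 0.373 and 0.890 (limma, Benjamini-Hochberg over 20737 genes). The mean level was higher in DOX+ for 5 genes (Atf5, Ddit3, Trib3, Phgdh and Shmt2) and lower for the other 5 (Atf4, Asns, Chac1, Psat1 and Mthfd2). Over all genes, 48.2% had the higher mean in DOX+ and 51.8% the lower. The differences spanned -0.37 to 0.77, with a median of 0.05 over the 10 genes and -0.01 over all genes. The 2 groups of arrays did not overlap for 3 of the 10 genes. Trib3 and Shmt2 were above every DOX- array, against 10.1% of all genes, and Atf4 was below every DOX- array, against 10.9% of all genes.

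**Figure D1:**
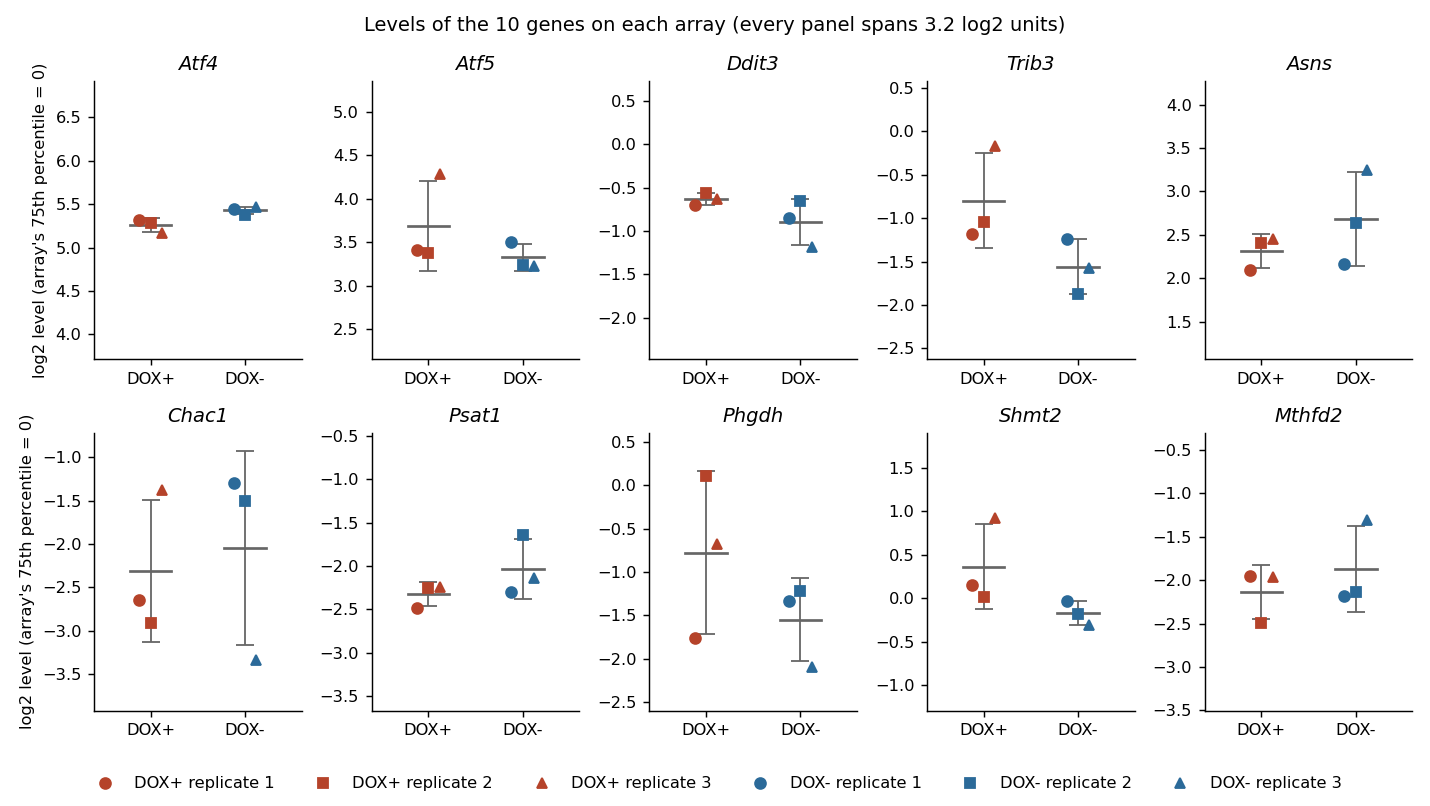
Level of each of the 10 genes on every array, in log2 units relative to the 75th percentile of that array, with DOX+ left and DOX- right and bars for the group mean ± SD (n = 3 each). Panels have equal spans, and levels are not comparable between genes. Trib3 and Shmt2 have all DOX+ points above the DOX- points, Atf4 has all of them below, and the other 7 genes overlap.

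The errors differed among the 10 genes. The median standard error of a difference was 0.28 over the 10 genes and 0.19 over all genes, but Atf4 and Ddit3 had standard errors below the median of all genes. The median absolute difference was 0.33 over the 10 genes and 0.20 over all genes. With each gene read by its brightest probe, the 95% confidence interval lay within a 2-fold change in either direction for 4 of the 10 genes. These were Atf4, Ddit3, Psat1 and Mthfd2. For the other 6 the arrays leave changes of more than 2-fold within the interval, in at least one direction. The bound of Mthfd2 depends on the probe. Its second probe, almost as bright, had an interval of -1.08 to 0.73, which goes beyond a 2-fold lower level.

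**Figure D2:**
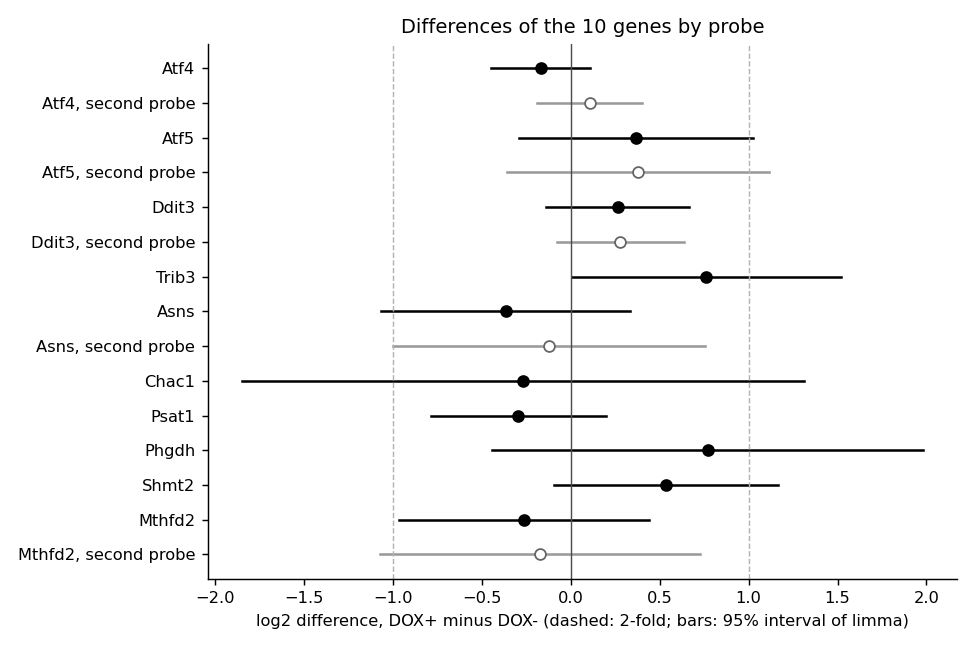
Difference in log2 level, DOX+ minus DOX-, for each of the 10 genes, with the 95% confidence interval of the limma fit. Filled points are the probes that represent the genes. Open points are the second probes of Atf4, Atf5, Ddit3, Asns and Mthfd2, from the same kind of fit over all kept probes. Dashed lines mark a 2-fold change. The interval of Trib3 just misses 0 before adjustment, that of Chac1 is the widest, and that of Atf4 the narrowest.

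Atf4 encodes the central transcription factor of the set. Its brighter probe stood at 5.32, 5.28 and 5.17 on DOX+ arrays, against 5.44, 5.38 and 5.46 on DOX- arrays. Every DOX+ value was thus below every DOX- value, yet the gap was small. The mean was 5.26 ± 0.08 in DOX+ and 5.43 ± 0.04 in DOX- (SD, n = 3 each), and the difference was -0.17 (SE 0.11, 95% interval -0.45 to 0.11, adjusted p = 0.552 by limma). A second Atf4 probe gave 1.31, 1.21 and 1.42 on DOX+ arrays, against 1.21, 1.18 and 1.23 on DOX- arrays. Here the groups overlapped, and the difference was 0.11 (95% interval -0.19 to 0.40). The probes of Atf4 thus differed in sign. With each array centred on its median, the second probe gave -0.01. Both lie on chromosome 15 in the files' mm9 coordinates, the brighter at 80087902 to 80087961 and the dimmer at 80087079 to 80087138.

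The hexamer AATAAA is the usual signal for cutting and polyadenylation near the end of an mRNA, and it was searched for in the strand of each probe as the files give it. It occurred in 5 of the 18 probes, against 5529 of all 56605 probes (9.77%). The part of the probe around it is shown for the brighter probe of Atf4, for the Ddit3 probe that represents the gene and for the Trib3 probe, with AATAAA in capitals.
Atf4: tgctgtgtttgctgtAATAAAttattttgt
Ddit3: gcactcacttatatatgcatagatAATAAA
Trib3: catcatgtgcccAATAAAagagagctgtgt
The second probe of Atf4 did not hold the hexamer. The array's annotation gives the Ddit3 probe shown here to another transcript than the second Ddit3 probe, which lies further along the gene. Whether its AATAAA is near the end of the main Ddit3 mRNA is not known.

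Atf5 encodes a factor closely related to ATF4 that is translated under stress by a like mechanism and is known for its role in mitochondrial stress. Its levels were 3.41, 3.38 and 4.28 in DOX+, against 3.51, 3.24 and 3.23 in DOX-. A single array, DOX+ replicate 3, stood above all others. The difference was 0.36 (SE 0.27, 95% interval -0.29 to 1.02, adjusted p = 0.588 by limma), and without that array it was 0.07. The second Atf5 probe showed the same shape, with 2.53, 2.45 and 3.54 in DOX+ and 2.63, 2.41 and 2.35 in DOX-, and a difference of 0.38 (SE 0.31). The probes lie close together on chromosome 7, at 52067627 to 52067686 and 52067718 to 52067777 (mm9).

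Ddit3 encodes CHOP, a stress-induced factor of the C/EBP family that promotes cell death in prolonged stress. Levels at its first probe (chromosome 10, 126731579 to 126731638, mm9) were -0.70, -0.57 and -0.64 in DOX+, against -0.85, -0.66 and -1.18 in DOX-. Only DOX- replicate 2 lay among the DOX+ values. The mean was -0.63 ± 0.07 in DOX+ and -0.90 ± 0.26 in DOX- (SD, n = 3 each). The difference was 0.26 (SE 0.17, 95% interval -0.14 to 0.66, adjusted p = 0.526 by limma), and 0.12 without DOX- replicate 3. The second probe, whose sequence spans 304 bases of chromosome 10 (126732518 to 126732821, mm9) and so crosses at least 1 intron, gave 0.28 (SE 0.15). The array's annotation assigns these probes to different transcripts.

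Trib3 encodes a pseudokinase that is induced by ATF4 and CHOP and damps their activity, and it came nearest to the threshold. Its single probe (chromosome 2, 152163161 to 152163220, mm9) read -1.18, -1.05 and -0.17 in DOX+, against -1.24, -1.87 and -1.57 in DOX-. The groups did not overlap, but the gap between DOX+ replicate 1 and DOX- replicate 1 was narrow. The mean was -0.80 ± 0.55 in DOX+ and -1.56 ± 0.32 in DOX- (SD, n = 3 each). The difference was 0.76 (SE 0.31), which is 1.70-fold, with a 95% interval of 0.00 to 1.52. The unadjusted p was 0.0491 and the adjusted p 0.373 by limma. Without DOX+ replicate 3 the difference was 0.45.

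The genes whose levels ran most like Trib3 over the 6 arrays were ranked by the root mean square of the gap between their levels, each centred on its own mean, among 19145 genes. The 5 nearest were Esm1 at 0.098 log2 units, Trerf1 at 0.156, Bnip3 at 0.157, and AF113001 and Sprr2b both at 0.166. Since the mean of Trib3 itself was higher in DOX+, genes near it share that difference by construction: it was 0.89 for Esm1, 0.54 for Trerf1, 0.87 for Bnip3, 0.70 for AF113001 and 0.69 for Sprr2b. Without DOX+ replicate 3 it was 0.59 for Esm1, 0.22 for Trerf1 and 0.43 for Sprr2b. No other gene of the 10 was among them.

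Asns makes asparagine from aspartate with nitrogen from glutamine and is a textbook target of amino acid shortage. Its brighter probe (chromosome 6, 7625171 to 7625228, mm9) read 2.09, 2.40 and 2.46 in DOX+, against 2.16, 2.64 and 3.25 in DOX-. The DOX- arrays spread over more than a whole log2 unit and enclosed most of the DOX+ values. The mean was 2.32 ± 0.20 in DOX+ and 2.68 ± 0.55 in DOX- (SD, n = 3 each), with a difference of -0.37 (SE 0.29, 95% interval -1.07 to 0.33, adjusted p = 0.610 by limma). Without DOX- replicate 3 the difference was -0.08, and without DOX- replicate 1 it was -0.63. The second Asns probe, which spans 146 bases of chromosome 6 (7626110 to 7626255, mm9), gave -0.12 (SE 0.36).

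Phgdh and Psat1 carry out the first steps of serine synthesis from a glycolytic intermediate. The probe of Phgdh (chromosome 3, 98117098 to 98117157, mm9) read -1.76, 0.11 and -0.68 in DOX+, against -1.33, -1.22 and -2.10 in DOX-. One DOX+ array was high, another was lower than 2 of the DOX- arrays, and the difference of 0.77 carried an SE of 0.50 (95% interval -0.44 to 1.98, adjusted p = 0.536 by limma). The difference of Phgdh was 1.26 without DOX+ replicate 1, 0.33 without DOX+ replicate 2 and 0.50 without DOX- replicate 3. That of Psat1 (chromosome 19, 15979622 to 15979681, mm9) read -2.49, -2.25 and -2.24 in DOX+, against -2.31, -1.64 and -2.14 in DOX-. Its difference was -0.29 (SE 0.20, 95% interval -0.79 to 0.20, adjusted p = 0.558 by limma). Without DOX- replicate 2 it was -0.10. Consecutive enzymes of the pathway therefore had differences on opposite sides of 0, and both 95% intervals included 0. The other 2 Psat1 probes did not pass the filter, 1 being well above background on no array and 1 on DOX+ replicate 2 alone.

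Shmt2 and Mthfd2 are mitochondrial enzymes that pass the one-carbon unit of serine to folate and oxidise it there. The probe of Shmt2 (chromosome 10, 126954811 to 126954870, mm9) read 0.15, 0.02 and 0.92 in DOX+, against -0.03, -0.18 and -0.31 in DOX-. The groups did not overlap, again with DOX+ replicate 3 far above the rest. The mean was 0.36 ± 0.49 in DOX+ and -0.17 ± 0.14 in DOX- (SD, n = 3 each), and the difference was 0.53 (SE 0.26, 95% interval -0.09 to 1.16, adjusted p = 0.430 by limma), or 0.25 without that array. A second Shmt2 probe was too dim to be called well above background on any array. The brighter probe of Mthfd2 (chromosome 6, 83256518 to 83256577, mm9) read -1.95, -2.50 and -1.96 in DOX+, against -2.18, -2.13 and -1.31 in DOX-. Its difference was -0.26 (SE 0.29, 95% interval -0.97 to 0.44, adjusted p = 0.724 by limma), and its second probe gave -0.17 (SE 0.37). Without DOX- replicate 3, the array with the highest value, the difference was 0.02, without DOX+ replicate 2 it was -0.08 and without DOX- replicate 1 it was -0.42.

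Chac1 encodes an enzyme that breaks down glutathione and is one of the most responsive ATF4 targets. Its probe (chromosome 2, 119179990 to 119180049, mm9) read -2.65, -2.91 and -1.38 in DOX+, against -1.30, -1.50 and -3.33 in DOX-. Both groups held high and low arrays, with the highest and the lowest of the 6 values both in DOX-. The mean was -2.31 ± 0.82 in DOX+ and -2.05 ± 1.12 in DOX- (SD, n = 3 each). The difference of -0.27 had the largest standard error of the 10 genes, 0.65, and an interval of -1.85 to 1.31 (adjusted p = 0.890 by limma), and leaving out 1 array at a time gave -0.91 to 0.10. A change of 2-fold either way was not detectable with these arrays.

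The 10 genes did not move as a block across the arrays. DOX+ replicate 3 had the highest value of Atf5, Trib3 and Shmt2 and the lowest of Atf4. DOX- replicate 3 had the highest value of Atf4, Asns and Mthfd2 and the lowest of Atf5, Ddit3, Chac1, Phgdh and Shmt2. This array also had the lowest share of spots well above background (55.93%) and the lowest 75th percentile before scaling (666). Whether this played a part in these extremes was not tested. The mean over the 10 genes was 0.02, 0.19 and 0.58 on DOX+ arrays and 0.19, 0.21 and 0.00 on DOX- arrays. Markers of other cells differed along the same arrays. The summed linear level of 8 mast cell markers was 7.53, 13.7 and 103 on DOX+ arrays, against 4.80, 2.66 and 2.28 on DOX- arrays, and DOX+ replicate 3 was highest here as well. All 8 had a higher mean in DOX+ and 0 of 8 passed the test, 6 with an unadjusted p under 0.05, although 2 of the 8 were not well above background on all 6 arrays. The mast cell protease genes Mcpt1 and Tpsb2 had 5.57 (95% interval 1.94 to 9.21) and 2.18 (SE 0.42). The summed level of 19 proliferation genes was 32.2, 20.1 and 21.1 on DOX+ arrays, against 27.6, 40.0 and 54.7 on DOX- arrays, highest on DOX- replicate 3. The summed level of 8 endothelial markers was 18.5, 18.8 and 14.5 on DOX+ arrays, against 11.99, 8.47 and 9.84 on DOX- arrays, so the groups did not overlap. All 8 had a higher mean in DOX+ (median 0.54) and 0 passed, 4 with an unadjusted p under 0.05. Singly, 4 of these 8 lay above every DOX- array, against 10.1% of all genes, and 0 below, against 10.9%. Of 13 cholangiocyte markers 12 had a lower mean in DOX+ and 0 passed, 3 with an unadjusted p under 0.05, with a median of -0.27. Among these, Cdh1 had -2.01 (SE 0.37, adjusted p = 0.172 by limma) and Slc10a2, a bile acid carrier, -1.75 (SE 0.31). The summed level of 7 pancreatic acinar markers was 158, 100 and 105 on DOX+ arrays, against 59.8, 94.8 and 246 on DOX- arrays. It was thus highest on DOX- replicate 3 although all 7 had a higher mean log2 level in DOX+ (median 0.94). The summed level of 8 smooth muscle markers was 188, 129 and 85.3 on DOX+ arrays, against 323, 63.2 and 69.5 on DOX- arrays, highest on DOX- replicate 1, with 5 higher and 3 lower means (median 0.21). Higher and lower means in DOX+ numbered 3 and 4 for hepatocyte markers (median -0.29), 4 and 4 for fibroblast markers (-0.04) and 3 and 5 for macrophage and dendritic cell markers (-0.18). They numbered 5 and 2 for T and NK cell markers (0.19) and 4 and 1 for B and plasma cell markers (0.38). In these 7 lists 0 genes passed, with an unadjusted p under 0.05 for 1 T and NK cell marker and 1 B and plasma cell marker. Of 8 B and plasma cell markers only 5 were tested, and only 2 of these were well above background on all 6 arrays. Singly, 2 of the 5 lay above every DOX- array, against 10.1% of all genes, and 0 below, against 10.9%. The summed level of the 5 was 16.3 to 20.8 on DOX+ arrays and 11.3 to 12.4 on DOX- arrays, so the groups did not overlap. The part of any of these in the levels of Atf5, Trib3, Shmt2, Asns and Mthfd2 was not tested.

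**Figure D3:**
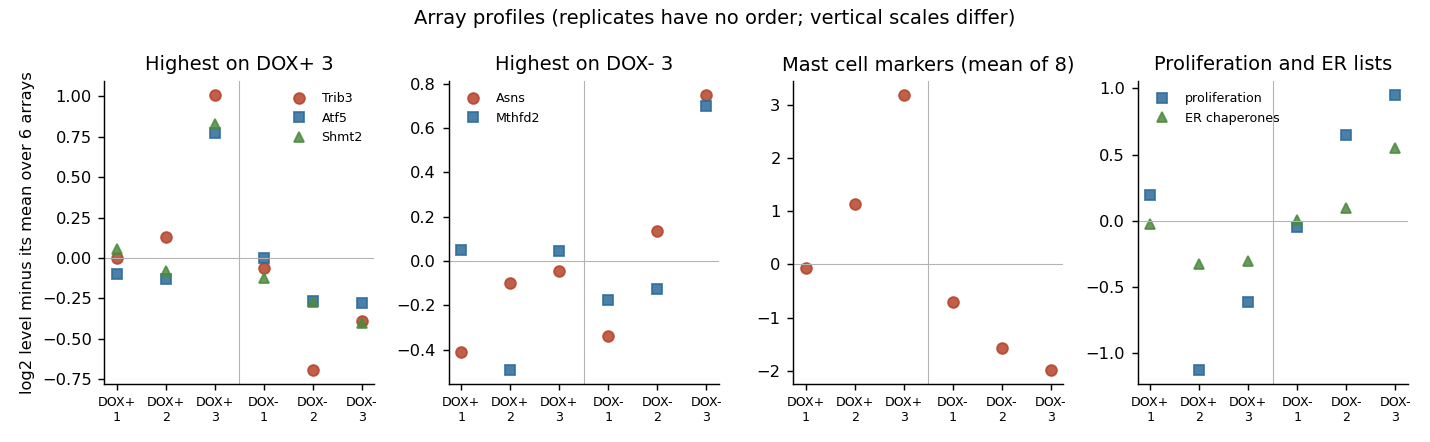
Log2 level minus its mean over the 6 arrays, with DOX+ arrays left of DOX- arrays in each panel. Trib3, Atf5 and Shmt2 are highest on DOX+ replicate 3, as is the mean of the mast cell markers, while Asns, Mthfd2 and the means of the proliferation and endoplasmic reticulum lists are highest on DOX- replicate 3.

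On the slide, DOX- replicate 1 shared a row with all 3 DOX+ arrays, while the other row held DOX- replicates 2 and 3. With the row as a block the comparison rests on DOX- replicate 1 alone as control. It gave 0.44 for Trib3, 0.39 for Shmt2, 0.18 for Atf5 and -0.18 for Atf4, while Asns stood at 0.15 and Mthfd2 at 0.04, on the other side of 0 from the fit without the row. Row and the difference between DOX- replicates cannot be told apart.

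Upstream of ATF4, the list of the eIF2 kinases, eIF2 subunits and their regulators held 16 genes, all tested. None passed (limma), 1 had an unadjusted p under 0.05, and 7 had a higher and 9 a lower mean in DOX+. Their median difference was -0.06, and 0.04 with quantile normalisation. The gene with the smallest p was Eif2s1, which encodes the alpha subunit that the kinases phosphorylate, at -0.58 (SE 0.20, adjusted p = 0.325 by limma), or -0.39 without DOX- replicate 3. Impact, which encodes an inhibitor of the amino acid sensing kinase GCN2, had 0.32 (SE 0.14). Among 6 partners of ATF4 and other transcription factors of its response none passed, none had an unadjusted p under 0.05, and 5 had a lower mean. Of these 6 genes, 1 is also counted among the further ATF4 target genes below. Nfe2l2, which encodes NRF2, a partner at antioxidant genes, had -0.30 (SE 0.14). Atf3, a stress-induced factor downstream of ATF4, had -1.26 with an SE of 0.71, and between -1.94 (without DOX- replicate 3) and -0.65 (without DOX- replicate 1) with 1 array left out.

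Among 14 further ATF4 target genes for stress and growth control, 13 were tested, Fgf21 being too dim. None passed (limma), 4 had an unadjusted p under 0.05, and 8 had a higher and 5 a lower mean in DOX+. Stc2, which encodes a secreted glycoprotein, had -1.69 (SE 0.39, adjusted p = 0.213 by limma). In the other direction, Vegfa, the vascular growth factor, had 0.69 (SE 0.18, adjusted p = 0.239 by limma). Ddit4, an inhibitor of mTORC1 signalling, had 0.38 (SE 0.14). Both had all DOX+ values above the DOX- values. In this list 2 of 13 genes lay above every DOX- array and 2 below, near the 10.1% and 10.9% of all genes. The largest difference in this list was that of Slc7a11, the cystine and glutamate exchanger that feeds glutathione synthesis. Slc7a11 read -7.28, -7.54 and -6.11 in DOX+, against -3.63, -2.61 and -2.75 in DOX-. The probe passed the background test on 0 of 3 DOX+ arrays and on all 3 DOX- arrays, so its level in DOX+ is only bounded. On the scale of the main processing the bound put its mean at least 4.29-fold lower in DOX+, with no allowance for sampling error. Its adjusted p was 0.103 by limma, with measured means of -6.98 ± 0.76 in DOX+ and -3.00 ± 0.55 in DOX- (SD, n = 3 each). Of its other 3 probes, 1 was well above background on a single DOX- array and 2 on none, so they gave no second reading. The measured difference, which is not a bound, was -3.98, and -1.41 with normexp background correction (adjusted p = 0.102 by limma).

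All 10 amino acid transporters were tested, Slc7a11 among them, and 0 passed (limma), 2 with an unadjusted p under 0.05. Of these, 6 had a higher and 4 a lower mean in DOX+, with a median of 0.10, and of -0.02 with arrays centred on their median. Slc7a1, a carrier of arginine and lysine, had -0.85 (SE 0.27, adjusted p = 0.296 by limma). Of 20 cytosolic aminoacyl-tRNA synthetases, which load tRNAs with amino acids, 19 were tested and 0 passed, 3 with an unadjusted p under 0.05. A lower mean in DOX+ was found for 15 of these and a higher one for 4, with a median of -0.12. The mean level of the 19 was 2.032, 2.041 and 2.118 on DOX+ arrays, against 2.026, 2.197 and 2.442 on DOX- arrays. DOX- replicate 1 thus lay below every DOX+ array. Wars, for tryptophan, had -0.53 (SE 0.18) and Rars, for arginine, -0.45 (SE 0.17), or -0.29 without DOX- replicate 3.

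**Figure D4:**
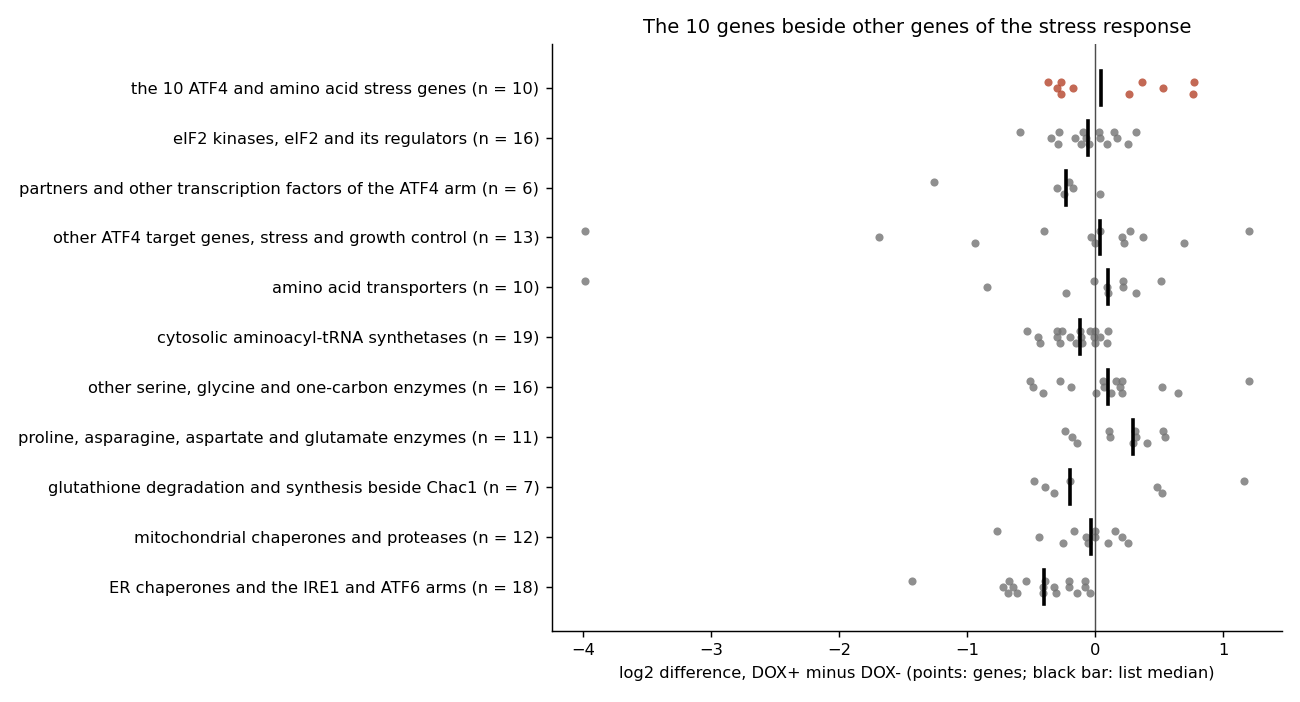
Difference in log2 level, DOX+ minus DOX-, for every tested gene of the 10 and of the pathway lists, 1 point per gene with the median of each list. The 10 genes lie between -0.37 and 0.77, all 18 endoplasmic reticulum genes lie below 0, and both points near -4 are Slc7a11, which is in 2 of the lists and was not well above background in DOX+.

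The other serine, glycine and one-carbon enzymes comprised 17 genes, of which 16 were tested. None passed (limma), 3 had an unadjusted p under 0.05, and 11 had a higher and 5 a lower mean in DOX+. Their median was 0.10, and -0.02 with arrays centred on their median. Shmt1, the cytosolic counterpart of Shmt2, had 1.20 (SE 0.42, adjusted p = 0.325 by limma), and 0.71 without DOX+ replicate 3. Mthfd2l, a mitochondrial relative of Mthfd2, had -0.40 (SE 0.15). Of 12 enzymes of proline, asparagine, aspartate and glutamate metabolism, 11 were tested, 0 passed and 1 had an unadjusted p under 0.05. A higher mean in DOX+ was found for 8 and a lower one for 3, with a median of 0.30. Gpt2, a mitochondrial alanine transaminase, had 0.53 (SE 0.20), and Bcat2, a transaminase of branched-chain amino acids, had 0.55 (SE 0.29), with 0.88 without DOX+ replicate 2 and 0.36 without DOX+ replicate 3.

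Beside Chac1, 7 genes of glutathione breakdown and synthesis were tested and 0 passed (limma), 3 with an unadjusted p under 0.05. These were Ggct, which acts on gamma-glutamyl peptides, at -0.48 (SE 0.12, adjusted p = 0.234 by limma), Oplah, which recycles oxoproline to glutamate, at 0.53 (SE 0.19), and Ggt1, the cell-surface enzyme that cleaves glutathione, at 1.16 (SE 0.44), or 0.66 without DOX+ replicate 3. Enzymes of this one cycle thus had differences of both signs.

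The neighbouring stress programmes were read as a setting for the 10 genes. Of 12 mitochondrial chaperones and proteases, which mark protein stress in that organelle, 0 passed (limma), 1 had an unadjusted p under 0.05, and 4 had a higher and 8 a lower mean in DOX+. Hspe1 and Hspd1, the subunits of the mitochondrial chaperonin, had -0.77 (SE 0.21, adjusted p = 0.249 by limma) and -0.44 (SE 0.20). Their list's median was -0.03, and 0.08 with quantile normalisation. All 18 endoplasmic reticulum chaperones and genes of the IRE1 and ATF6 arms had a lower mean in DOX+, with a median of -0.40, though 0 of 18 passed and 4 had an unadjusted p under 0.05. Pdia6, a disulphide isomerase, had -0.67 (SE 0.15, adjusted p = 0.209 by limma), and Sdf2l1, a chaperone cofactor, -1.43 (SE 0.41). The summed linear level of these 18 genes was 261, 220 and 222 on DOX+ arrays, against 276, 293 and 385 on DOX- arrays, so the groups did not overlap. Singly, 6 of the 18 lay below every DOX- array, against 10.9% of all genes, and 0 above, against 10.1%. Of 19 proliferation genes tested, all had a lower mean in DOX+, 8 with an unadjusted p under 0.05 and 0 past the threshold, with a median of -1.03. Bub1b, of the mitotic checkpoint, had -1.26 (SE 0.29, adjusted p = 0.208 by limma), and Top2a, a DNA topoisomerase, -1.66 (SE 0.67), or -1.02 without DOX+ replicate 2. Of the 19 proliferation genes, 16 were well above background on all 6 arrays. Bub1b was dim, and well above background on only 2 of 3 DOX+ arrays.

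Over the 17 other ways of processing the data or leaving out an array, 0 of the 10 genes passed the threshold in any. The difference of Trib3 ranged between 0.44 and 0.95, with adjusted p-values of 0.115 to 0.907 by limma, and that of Shmt2 between 0.25 and 0.71. Both kept a positive sign throughout, as did Atf5, Ddit3 and Phgdh, and Atf4 (-0.28 to -0.03) and Psat1 (-0.57 to -0.02) kept a negative one. Asns, Chac1 and Mthfd2 changed sign in at least one of them.

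**Figure D5:**
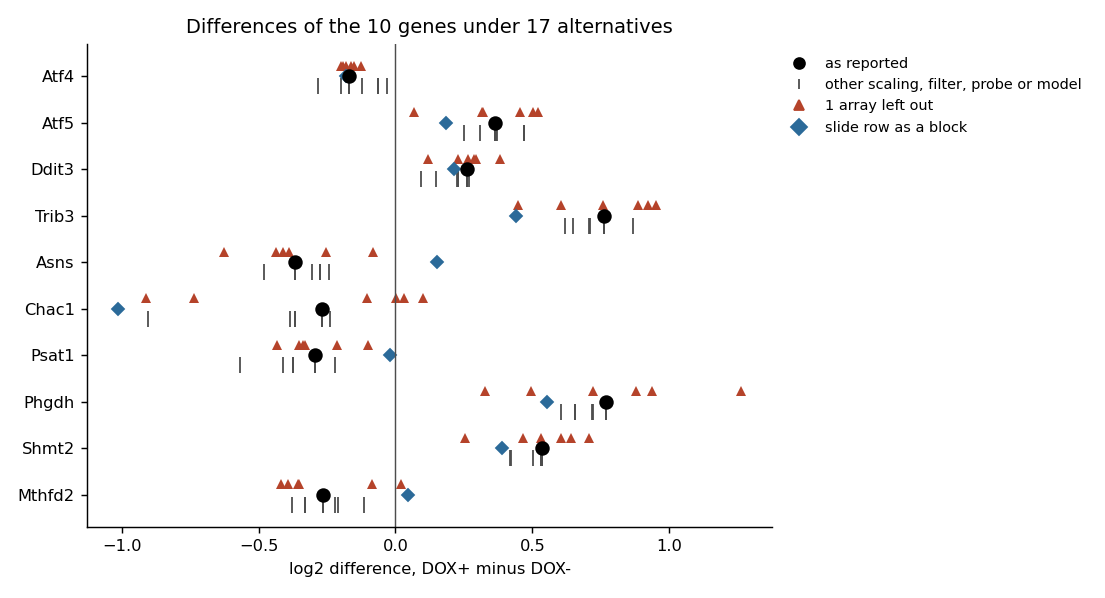
Difference in log2 level, DOX+ minus DOX-, of each of the 10 genes under the main processing and under the 17 alternatives, 1 point each. Trib3, Shmt2, Atf5, Ddit3 and Phgdh stay above 0, Atf4 and Psat1 stay below 0, and Asns, Chac1 and Mthfd2 have points on both sides.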

How the data were processed

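RNA was labelled with Cy3, 1 array per sample. The deposited scanner files hold the intensity of each spot. Per the file headers, it came from Feature Extraction 10.7.1.1 (9.5.1.1 in the submitters' processing notes), which subtracted background and detrended each array by itself. The deposited flags give spots well above background, saturated spots and outliers. A further deposited table holds intensity on a linear scale with columns of equal distribution, as quantile normalisation gives (median 57.79 in each column), and served as an alternative.

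The intensity was put on a log2 scale and set to 0 at each array's 75th percentile, 50 to 64 outlier spots per array were left out, spots of a probe were averaged, and a probe was kept where 1 group or both had it well above background in all 3 samples. Each gene was read by its brightest kept probe (mean over arrays), and further probes are named where they were measured. Other probes were named through RefSeq by accession (32978), symbol (10222) or older symbol (520), and 12867 kept the file's name. The DOX+ and DOX- groups entered a limma fit (version 3.58.1, R 4.3.3; lmFit, eBayes, two-sided), with Benjamini-Hochberg adjustment over 20737 genes and a threshold of 0.05. On simulated data for 20737 genes, 200 were changed, and spreads were drawn from limma's prior without variation shared by the genes of an array. There 2-fold changes were recovered in 24.3%, 4-fold in 75.1% and 8-fold in 90.4%, and 5.2% of the calls were false. These are not rates for the 10 genes, whose median SE was 0.28 against 0.19 over all genes. The bound of a probe too dim in one group takes, on each dim array, whichever is higher of its own signal and the lowest signal called well above background, and sets the brighter group's mean against the mean of these. Alternatives were normexp background correction, quantile and median scaling, the authors' values, both filters on dim probes, the mean of a gene's probes, limma-trend, array weights, the slide row or the replicate number as a block, and leaving out each array. With 3 arrays per group, the number of arrays limits the precision. The text names the 10 genes and, from the lists of the pathway, of proliferation, cholangiocytes and mast cells, genes among the 2 with the smallest p and the 1 with the largest difference among genes well above background on all 6 arrays. Other marker lists are given by counts, medians and, for some, summed levels. Vegfa and Ddit4 were named after their values were seen. Probe coordinates are those of the files (mm9), and exon annotation was not used here. The 10 genes and the 21 lists beside them were chosen with earlier results of these data known.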

Additional observations from a re-analysis of the deposited data

How the results depend on the processing

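The number of the 10 genes past the threshold was 0 in each of the 17 alternatives, and their median difference stayed between -0.07 and 0.19. It moved by less than the SD, within groups, of the mean level of the 10 genes on an array. That SD is not the error of the median difference. Over all genes, 8 passed in the main processing. That count was 2 with quantile normalisation and 2 with the authors' processed values, 5 with arrays centred on their median, 1 with no filter on dim probes and 5 with probes well above background on all 6 arrays. Weighting the arrays (DOX- replicate 2 then had a weight of 4.9) gave 375, and the slide row as a block gave 0 (1409 with an unadjusted p under 0.05). Leaving out 1 array at a time gave 0 to 9. Without DOX+ replicate 1 the count was 1, and without DOX- replicate 2 it was 0 (1541 with an unadjusted p under 0.05). Same-numbered samples had correlations of -0.086, -0.129 and -0.02 in their deviations from the group mean, and differently numbered ones -0.129 to 0.219. With 3 samples per group these values cannot settle whether samples were paired. With the replicate block 0 genes passed (2258 with an unadjusted p under 0.05), 0 of the 10 among them. The difference of Asns was 0.15 and that of Mthfd2 0.045 with the slide row as a block. Leaving out 1 array at a time gave -0.91 to 0.10 for Chac1 and -0.42 to 0.019 for Mthfd2. The cause was not tested. Centring arrays on their median moved the median of all genes by -0.115, which applies to every difference. Slc7a11, whose DOX+ level is only bounded, had an adjusted p of 0.0185 by limma with array weights and of 0.0502 to 0.488 in the other alternatives that tested it. Its measured difference, which is not a bound, was -1.41 with normexp background correction. With 3 arrays per group, Slc7a11 did not pass in the main fit at a measured -3.98 (SE 0.45, adjusted p = 0.103 by limma). Relative to its SE, a 2-fold change of any of the 10 genes would be smaller than this. Changes of 2-fold were therefore not expected to pass for any of them, Chac1 and Phgdh least of all.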
